A study of Rattus norvegicus with 12 samples.

Results

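The proteasome is the protease complex that degrades ubiquitin-tagged proteins, and 36 of its genes in rat muscle are described here. They are all genes whose probe sets name 1 rat symbol made of Psma, Psmb, Psmc or Psmd and a number, out of 14217 genes named that way on the array. Each gene is represented by the probe set with the highest mean among its own, 36 of the 47 probe sets found, and all 36 passed the filter on low signal. The rats were male Wistar-Hannover animals whose left sciatic nerve had been cut, so that the gastrocnemius, a calf muscle, had lost its motor supply, and total RNA of that muscle was hybridised to 12 one-colour Affymetrix arrays. All 4 groups had the nerve cut and were dosed for 7 days, with 3 arrays each. Nandrolone day 35 received nandrolone, an anabolic androgen, from day 29 after surgery and was killed at day 35, and vehicle day 35 received vehicle on the same days. Nandrolone day 7 and vehicle day 7 were dosed for the 7 days up to their death at day 7, so from about the time of surgery. No muscle with an intact nerve was analysed here, so time after nerve section cannot be told apart from the rats' growth. The dose and the animals' ages are not given in the sources used here. Nothing in the labels says that the 3 arrays of a group are 3 animals, and the p-values measure the spread between these arrays.

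The core particle of the proteasome is a barrel of stacked rings, with outer rings of alpha subunits, encoded by the Psma genes, and inner rings of beta subunits, encoded by the Psmb genes. A few beta subunits carry the proteolytic sites, and in cells exposed to interferon gamma they are replaced by the immunoproteasome subunits Psmb8, Psmb9 and Psmb10. The regulatory particle caps the barrel: its base holds a ring of ATPases, encoded by the Psmc genes, that unfold substrates and feed them into the core, and its lid removes the ubiquitin chains. In denervated muscle the ubiquitin-proteasome route is known to carry much of the loss of contractile protein, and transcription of its genes is known to rise early in atrophy. The 36 genes fall into 7 of the alpha ring, 4 structural and 2 catalytic genes of the beta ring, 3 immunoproteasome genes, 6 ATPases, 3 other genes of the base, 8 of the lid and 3 chaperones that assemble the base. Psmb6, the remaining catalytic gene, shares its probe set with Psmb6l1 and so is not among the 36.

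Levels below are log2 of the signal plus 16 after quantile normalisation, and changes are differences on that scale with their standard errors. One array stood apart in signal and correlation. Nandrolone day 35 replicate 3 had a median signal of 111, against 44.8 to 63.5 in the other arrays, and the lowest mean correlation with the other arrays of its group. It was the lowest of the 12 arrays for 26 of the 36 genes. The share of all tested probe sets that were lowest in that array was not counted, so this need not be particular to the 36. The same array had the highest summed signals of Schwann cell, adipocyte, smooth muscle, endothelial and fibroblast markers. Nandrolone day 7 replicate 3 also differed in its markers. Its macrophage sum was 9926, against 2117 to 6227 in the other arrays, and its lymphocyte sum 291, against 95 to 183. Its fibroblast sum, 39872, was the next highest. Values without nandrolone day 35 replicate 3 stand beside the main comparisons that it moved and beside some, not all, of the subcomplex medians. The 3' to 5' signal ratio of actin, a sign of RNA quality, was 1.90 to 2.57 in nandrolone day 35, 2.68 to 3.71 in vehicle day 35, 2.08 to 2.79 in nandrolone day 7 and 2.11 to 2.81 in vehicle day 7. The muscle markers were high throughout, with 7 genes such as Acta1 and Ckm that summed to 90392 to 99514 in nandrolone day 35, 98746 to 100358 in vehicle day 35, 90834 to 94630 in nandrolone day 7 and 93677 to 96226 in vehicle day 7. No marker of any list was at 0 in any array. In whole muscle, fewer cells of a type and less RNA per cell cannot be told apart.

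Some proteasome genes were lower at day 35 than at day 7. Averaged over both treatments, 6 of the 36 fell and none rose: the alpha ring genes Psma4 and Psma5, the base scaffold Psmd2, the base chaperone Psmd5 and the lid genes Psmd8 and Psmd11. Their falls ran between 0.37 and 0.70 on the log2 scale, which is 0.773 down to 0.616 of the day 7 level. The 6 are 16.7% of the genes, and 6.07% of all 18626 tested probe sets fell and 6.49% rose in the same comparison. The median change of the 36 genes was -0.16, between -0.70 for Psmd8 and 0.48 for Psmb8, and 31 of them (86.1%) were below 0 against 51% of all tested probe sets. At an unadjusted p under 0.05, 12 genes (33.3%) were lower, against 14.5% of all tested probe sets, and 1 (2.78%) was higher, against 14.2%. The calls are limma's, adjusted by Benjamini-Hochberg over all tested probe sets at 0.05. Without nandrolone day 35 replicate 3 the median was -0.09, 25 of the 36 genes (69.4%) were below 0 against 50.8%, and 4 fell against 6.46%, with Psma5 (adjusted p = 0.0505) and Psmd11 (adjusted p = 0.0623) lost. Without vehicle day 7 replicates 1, 2 and 3 the count was 2, 1 and 1, without nandrolone day 7 replicates 1, 2 and 3 it was 2, 2 and 3, without vehicle day 35 replicate 1 it was 1, and on the deposited scale, with no normalisation, it was 1. Psmd8 was among the called genes each time. Lower calls over all tested probe sets, 1130 in the main fit, numbered 720, 680, 647, 1032, 659, 887, 702 and 283 in these fits, in the order given. Over the 12 fits that each left out 1 array, the call was kept in 12 for Psmd8, 7 for Psma4, 6 for Psmd2, 3 for Psmd5, 3 for Psma5 and 2 for Psmd11.

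**Figure D1:**
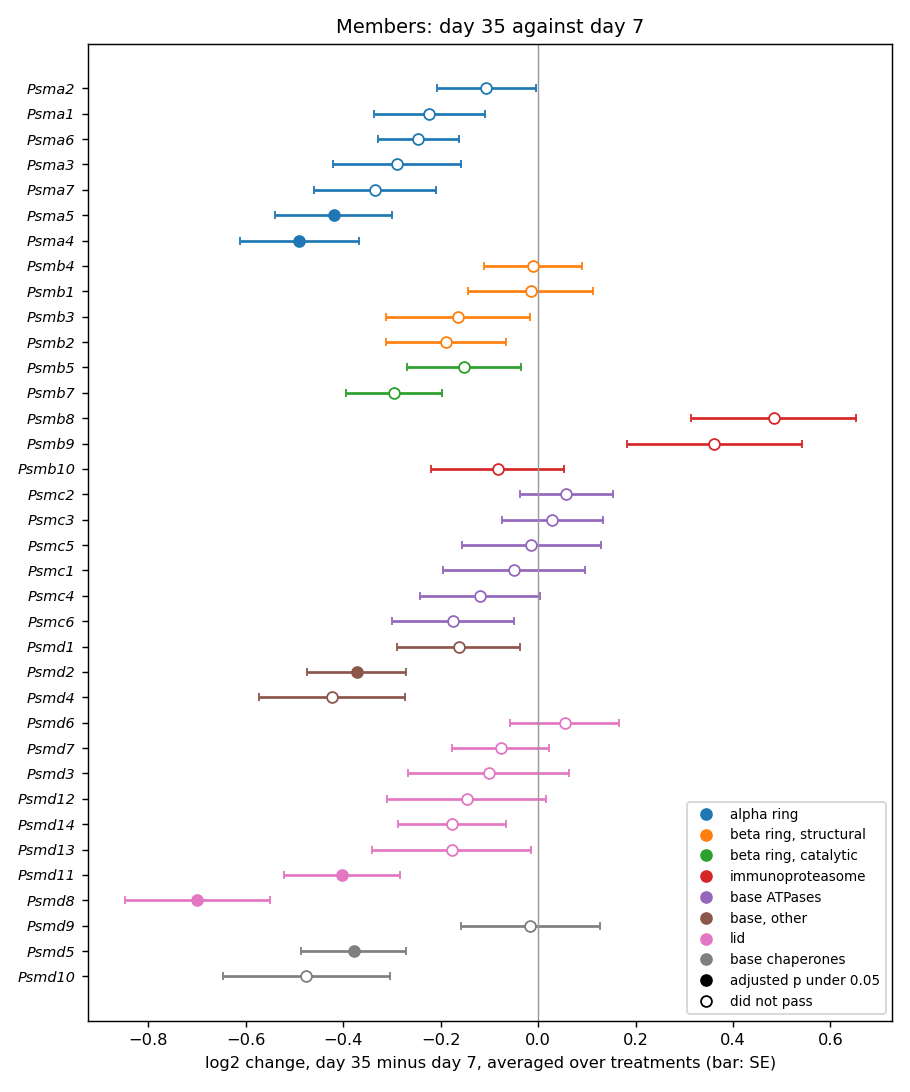
Change of each of the 36 genes between day 35 and day 7, averaged over nandrolone and vehicle (x axis, log2 change with its standard error), grouped by subcomplex (colours). Filled points passed an adjusted p of 0.05. The 6 filled points all lie left of 0, with Psmd8 farthest at -0.70, and the points farthest right are the open ones of Psmb8 and Psmb9.

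In the alpha ring 2 of 7 genes fell. All 7 were below 0, with a median of -0.29 and a range of -0.49 to -0.11, and all 7 were also below 0 without nandrolone day 35 replicate 3, at a median of -0.24. Psma4 had log2 levels of 10.01, 10.42 and 10.05 in nandrolone day 35 and 9.78, 10.15 and 10.42 in vehicle day 35, against 10.69, 10.65 and 10.62 in nandrolone day 7 and 10.61, 10.62 and 10.58 in vehicle day 7. Every day 35 array lay below every day 7 array, and the 6 day 7 arrays lay close together. Psma4 fell by 0.49 ± 0.12 (limma, adjusted p = 0.022, n = 6 arrays a day). Psma5 had log2 levels of 10.66, 10.85 and 10.54 in nandrolone day 35 and 10.87, 10.90 and 10.62 in vehicle day 35, against 11.49, 10.88 and 11.20 in nandrolone day 7 and 11.28, 11.15 and 10.98 in vehicle day 7. The days overlapped by a single pair, vehicle day 35 replicate 2 above nandrolone day 7 replicate 2. Psma5 fell by 0.42 ± 0.12 (limma, adjusted p = 0.0387). The other 5 did not pass, with Psma7 at -0.34 ± 0.13, Psma3 at -0.29 ± 0.13, Psma6 at -0.25 ± 0.08, Psma1 at -0.22 ± 0.11 and Psma2 at -0.11 ± 0.10.

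A further alpha ring probe set names both Psma3 and its near-copy Psma3l, so it is not one of the 36 and its signal cannot be assigned to either gene. It had log2 levels of 11.03, 11.35 and 11.07 in nandrolone day 35 and 11.20, 11.41 and 11.01 in vehicle day 35, against 11.78, 11.97 and 11.91 in nandrolone day 7 and 11.78, 11.71 and 11.83 in vehicle day 7. All 6 day 35 arrays were lower than all 6 day 7 arrays. This probe set fell by 0.65 ± 0.10 averaged over treatments (limma, adjusted p = 0.0019), by 0.74 under nandrolone (adjusted p = 0.0378) and by 0.57 under vehicle (adjusted p = 0.0338). The probe set of Psma3 alone stood at -0.29 and did not pass (adjusted p = 0.167). The averaged call was kept in all 24 alternative settings that were run, and in the single treatments it was kept in 8 of 19 under nandrolone and 10 of 20 under vehicle, and in 1 of 6 fits that left out 1 array in each.

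In the regulatory particle and its chaperones, the called genes were the lid genes Psmd8 and Psmd11, the base scaffold Psmd2 and the base chaperone Psmd5. Whether the subcomplexes differ from each other was not tested. Psmd8, a lid subunit needed for the lid to join the base, had log2 levels of 10.11, 10.44 and 9.78 in nandrolone day 35 and 10.08, 10.50 and 10.03 in vehicle day 35, against 11.19, 10.74 and 10.60 in nandrolone day 7 and 11.02, 10.90 and 10.69 in vehicle day 7. The highest day 35 array, vehicle replicate 2, was below the lowest day 7 array, nandrolone replicate 3. Psmd8 fell by 0.70 ± 0.15 (limma, adjusted p = 0.0107) and kept the call in all 24 alternatives. Psmd11, a lid scaffold that touches the core particle, had log2 levels of 11.17, 11.75 and 11.10 in nandrolone day 35 and 11.45, 11.66 and 11.38 in vehicle day 35, against 11.83, 11.80 and 11.70 in nandrolone day 7 and 11.72, 11.84 and 12.05 in vehicle day 7. Nandrolone day 35 replicate 2 stood among the day 7 arrays and the other 5 day 35 arrays lay below all of those. Psmd11 fell by 0.40 ± 0.12 (limma, adjusted p = 0.0444), and its further probe set stood at -0.30 (adjusted p = 0.105). The lid as a whole had a median of -0.16, with 7 of 8 genes below 0, and the 6 that did not pass ranged from -0.18 to 0.05. The lid's median was -0.05, with 6 of 8 below 0, without nandrolone day 35 replicate 3. Of all tested probe sets 51% were below 0 with that array and 50.8% without it. Further probe sets of the deubiquitinase Psmd14 stood at -0.31 and -0.36 and that of its lid partner Psmd7 at -0.30, and none of these passed.

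Psmd2, a base scaffold that receives ubiquitin-like shuttle proteins, had log2 levels of 11.62, 11.76 and 11.25 in nandrolone day 35 and 11.61, 11.67 and 11.81 in vehicle day 35, against 12.05, 12.02 and 11.88 in nandrolone day 7 and 11.87, 12.16 and 11.98 in vehicle day 7. The days did not overlap, and nandrolone day 35 replicate 3 was the lowest array. Psmd2 fell by 0.37 ± 0.10 (limma, adjusted p = 0.0323). The other base genes that are not ATPases, the scaffold Psmd1 and the ubiquitin receptor Psmd4, stood at -0.16 ± 0.13 and -0.42 ± 0.15 and did not pass. Psmd5, a chaperone that holds ATPases during assembly of the base, had log2 levels of 9.31, 9.62 and 9.34 in nandrolone day 35 and 9.21, 9.52 and 9.48 in vehicle day 35, against 9.91, 9.71 and 9.71 in nandrolone day 7 and 9.79, 9.81 and 9.83 in vehicle day 7. All 6 day 35 arrays were below all 6 day 7 arrays. Psmd5 fell by 0.38 ± 0.11 (limma, adjusted p = 0.0384), while the chaperones Psmd10 and Psmd9 stood at -0.48 ± 0.17 and -0.02 ± 0.14 and did not pass. Day 35 and day 7 arrays were apart, with day 35 lower, for 4 of the 36 genes (11.1%), Psma4, Psmd2, Psmd5 and Psmd8, against 3.41% of all tested probe sets.

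**Figure D2:**
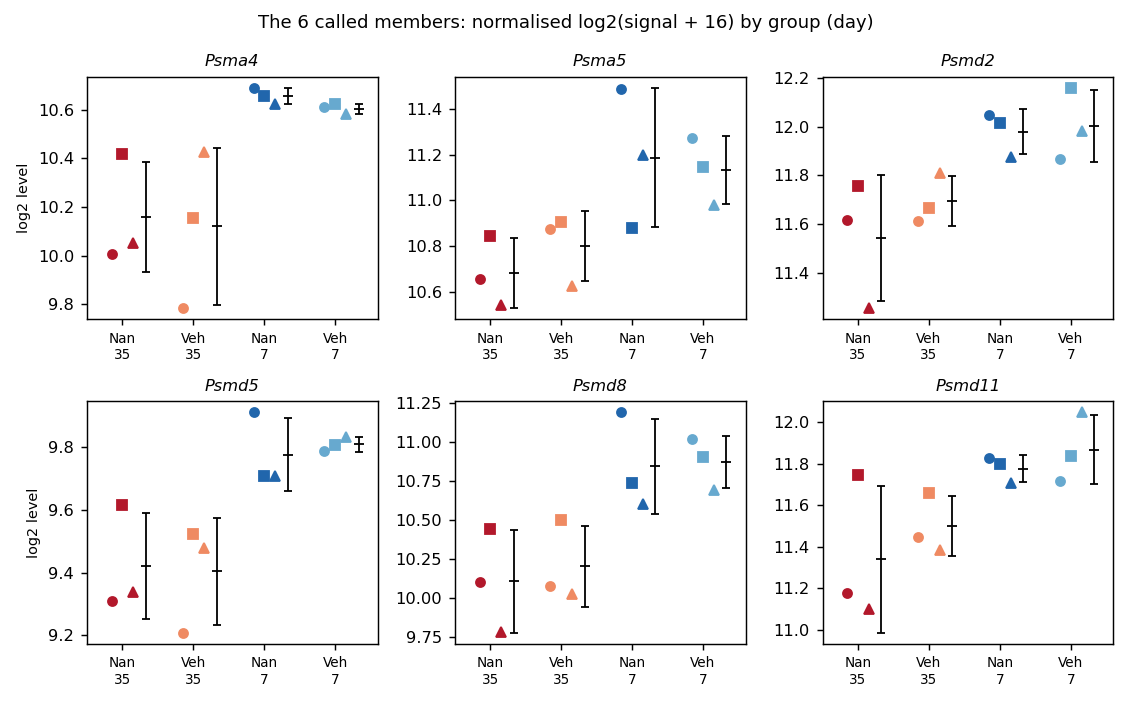
Log2 level of the 6 called genes in each of the 12 arrays (y axis, log2 of signal plus 16, quantile normalised), with circles, squares and triangles for replicates 1, 2 and 3 and black bars for the group mean and SD (n = 3). The day 35 groups are left of the day 7 groups; in Psma4, Psmd2, Psmd5 and Psmd8 all day 35 points lie below all day 7 points.

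The promoters of 4 genes are shown because they set the called genes Psmd8 and Psma4 beside a catalytic gene, Psmb5, and an immunoproteasome gene, Psmb8. They are RefSeq windows around the gene start on the GRCr8 assembly, on the gene's strand: chr1:93608640-93608939 for Psmd8 (minus strand), chr8:64236270-64236569 for Psma4 (plus), chr15:32047330-32047629 for Psmb5 (minus) and chr20:4656982-4657281 for Psmb8 (minus). Capitals mark 3 motifs searched on both strands: the antioxidant response core TGACNNNGC, known to be bound by Nrf1 and Nrf2, the interferon response core GAAANNGAA and the gamma activated site TTCNNNGAA, whose letters can overlap those of the interferon core.
Psmd8: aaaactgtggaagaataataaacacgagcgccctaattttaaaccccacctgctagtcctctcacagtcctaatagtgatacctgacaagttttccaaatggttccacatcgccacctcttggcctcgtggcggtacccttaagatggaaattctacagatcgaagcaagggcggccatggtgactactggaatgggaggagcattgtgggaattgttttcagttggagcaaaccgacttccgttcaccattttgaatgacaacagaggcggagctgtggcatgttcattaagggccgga
Psma4: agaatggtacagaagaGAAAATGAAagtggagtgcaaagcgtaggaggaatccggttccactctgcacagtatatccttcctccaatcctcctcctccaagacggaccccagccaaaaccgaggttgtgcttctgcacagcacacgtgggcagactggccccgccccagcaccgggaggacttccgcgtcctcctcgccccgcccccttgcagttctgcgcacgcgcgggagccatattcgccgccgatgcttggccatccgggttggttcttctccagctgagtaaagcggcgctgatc
Psmb5: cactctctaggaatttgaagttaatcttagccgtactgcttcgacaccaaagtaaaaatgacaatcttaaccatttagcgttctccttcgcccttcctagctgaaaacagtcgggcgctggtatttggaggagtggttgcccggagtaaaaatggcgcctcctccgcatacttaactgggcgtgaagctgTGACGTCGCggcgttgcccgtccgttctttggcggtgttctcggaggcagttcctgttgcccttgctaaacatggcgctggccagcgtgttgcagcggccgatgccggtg
Psmb8: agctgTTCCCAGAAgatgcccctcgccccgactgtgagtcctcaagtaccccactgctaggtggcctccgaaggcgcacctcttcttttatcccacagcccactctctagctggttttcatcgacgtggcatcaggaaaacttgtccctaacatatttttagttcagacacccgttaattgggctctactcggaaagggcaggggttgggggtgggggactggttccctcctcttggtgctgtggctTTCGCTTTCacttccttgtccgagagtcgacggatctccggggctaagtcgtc
Psmd8 holds none of them, Psma4 an interferon core, Psmb5 an antioxidant response core and Psmb8 a gamma activated site and an interferon core, the second read on the opposite strand. Of the 36 genes, 32 had a window. The antioxidant response core was in 6 of the 32 (18.8%), against 12.2% of all 27457 promoters, and none of the 6 was a called gene. The interferon core was in 7 (21.9%) against 9.5%, and the gamma activated site in 4 (12.5%) against 8.68%. The NF-Y box CCAAT was in 18 (56.2%) against 37.7%, among them Psma4 and Psma5, and the FoxO core GTAAACA in 0 against 3.76%. These are matches of letters in a short window, not sites of binding.

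No other gene of the core particle passed with time. The structural beta genes Psmb1 to Psmb4 ranged from -0.19 to -0.01 with a median of -0.09, and none passed. They ranged from -0.15 to 0.03, with a median of -0.03 and 2 of 4 below 0, without nandrolone day 35 replicate 3. Psmb3, which of these 4 had the smallest p in any comparison, had log2 levels of 11.30, 10.94 and 10.58 in nandrolone day 35 and 11.44, 11.44 and 11.29 in vehicle day 35, against 11.65, 11.23 and 10.93 in nandrolone day 7 and 11.62, 11.32 and 11.23 in vehicle day 7. Its day 7 arrays spanned the same levels as its day 35 arrays except for nandrolone day 35 replicate 3, the lowest of all. Psmb7, the trypsin-like catalytic subunit, had log2 levels of 11.88, 11.89 and 11.51 in nandrolone day 35 and 12.10, 12.21 and 12.06 in vehicle day 35, against 12.45, 12.07 and 12.05 in nandrolone day 7 and 12.31, 12.27 and 12.28 in vehicle day 7. The nandrolone day 35 arrays were the 3 lowest, and vehicle day 35 overlapped with nandrolone day 7. Its change with time was -0.30 ± 0.10 (limma, adjusted p = 0.0684), which did not pass. Psmb5, the chymotrypsin-like catalytic subunit, had log2 levels of 12.14, 11.74 and 11.42 in nandrolone day 35 and 12.04, 12.04 and 11.996 in vehicle day 35, against 12.29, 11.98 and 11.88 in nandrolone day 7 and 12.12, 12.003 and 12.03 in vehicle day 7. All arrays but nandrolone day 35 replicates 2 and 3 lay between 11.88 and 12.29, and the change was -0.15 ± 0.12 (adjusted p = 0.424), or -0.07 without nandrolone day 35 replicate 3. The probe set shared by Psmb6 and Psmb6l1 stood at -0.12 ± 0.13 and did not pass.

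The ATPases, too, had no call. Psmc2 and Psmc3 stood at 0.06 and 0.03, Psmc5 and Psmc1 at -0.01 and -0.05, Psmc4 at -0.12 and Psmc6 at -0.17, each with a standard error of 0.09 to 0.15. Their median was -0.03, with 4 of 6 below 0. It was 0.08, with 2 of 6 below 0, without nandrolone day 35 replicate 3. Psmc6 has further probe sets at 0.02 and -0.04. Whether the ATPases differ from the alpha ring was not tested.

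The immunoproteasome genes Psmb8 and Psmb9 stood on the other side of 0 from most of the 36, though neither passed. Psmb8, which replaces Psmb5, had log2 levels of 7.02, 6.99 and 7.58 in nandrolone day 35 and 7.72, 7.49 and 7.001 in vehicle day 35, against 6.67, 6.77 and 6.86 in nandrolone day 7 and 7.16, 6.57 and 6.86 in vehicle day 7. The nandrolone day 7 arrays were below every day 35 array, while vehicle day 7 replicate 1 was above 3 of them. Its change was 0.48 ± 0.17 (limma, adjusted p = 0.0802). It passed in 2 of 24 alternatives, with array weights and without vehicle day 35 replicate 3. Psmb9, encoded in the major histocompatibility complex like Psmb8, had log2 levels of 7.81, 7.53 and 8.32 in nandrolone day 35 and 7.99, 7.72 and 7.55 in vehicle day 35, against 7.52, 7.14 and 7.91 in nandrolone day 7 and 7.52, 7.08 and 7.56 in vehicle day 7. Both days overlapped, nandrolone day 35 replicate 3 was the highest array, and the change was 0.36 ± 0.18 (adjusted p = 0.207). Psmb10, which replaces Psmb7, had log2 levels of 7.13, 7.45 and 7.69 in nandrolone day 35 and 7.65, 7.66 and 7.57 in vehicle day 35, against 7.77, 7.42 and 7.80 in nandrolone day 7 and 7.74, 7.34 and 7.58 in vehicle day 7. The days overlapped in part, with 3 day 7 arrays above every day 35 array, and the change was -0.08 ± 0.14 (adjusted p = 0.733), which turned to 0.09 on the deposited scale. Without nandrolone day 35 replicate 3 the 3 changes were 0.39, 0.25 and -0.15. The immunoproteasome genes were the only subcomplex of the 8 whose median with time was above 0, at 0.36. Without that array it was 0.25, and the ATPases' median was then above 0 as well.

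**Figure D3:**
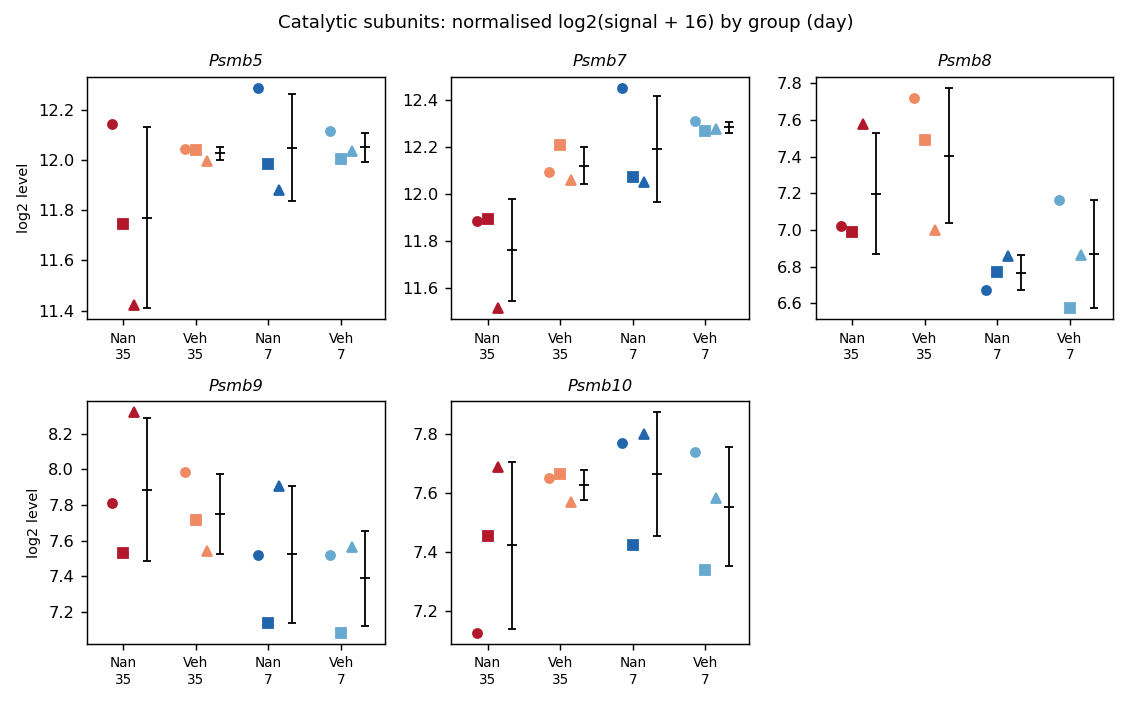
Log2 level of the constitutive catalytic genes Psmb5 and Psmb7 and of the immunoproteasome genes Psmb8, Psmb9 and Psmb10 in each array (y axis, log2 of signal plus 16, quantile normalised; circles, squares and triangles are replicates 1, 2 and 3; black bars are mean and SD, n = 3). Nandrolone day 35 replicate 3 (the red triangle) is the lowest array for Psmb5 and Psmb7 and the highest for Psmb9.

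Leukocytes are rich in the immunoproteasome, so their markers were examined too. All 11 tested macrophage markers were below 0 at day 35, against 51% of all tested probe sets, with a median of -0.51. Of the 11, 2 fell, against 6.07% of all tested probe sets. The 12 measured markers summed to 2612 to 6227 in nandrolone day 35, 2117 to 2741 in vehicle day 35, 2887 to 9926 in nandrolone day 7 and 3669 to 4627 in vehicle day 7. Of 10 lymphocyte markers 8 were measured and 2 tested, neither of which passed, and the sums were 95 to 159, 127 to 150, 173 to 291 and 162 to 182 in the same groups. Interferon and antigen presentation genes had a median of 0.19 and no call, with 11 of 15 above 0 and 4 below, against 51% of all tested probe sets below. Tap1, a transporter gene next to Psmb9, stood at 0.47 ± 0.20 (limma, adjusted p = 0.147). Tap2 went the other way, with mean log2 levels of 5.85 in nandrolone day 35 and 5.83 in vehicle day 35, against 6.11 in nandrolone day 7 and 5.97 in vehicle day 7. The part of cell composition in the immunoproteasome values was not tested.

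Further marker lists covered the other cells of muscle. Of the 4 tested Schwann cell markers all were above 0 and 1 rose. Of all tested probe sets 51% were below 0 and 6.49% rose. The 6 Schwann cell markers measured of 8 summed to 3682 to 15144 in nandrolone day 35, 3416 to 4817 in vehicle day 35, 1691 to 2969 in nandrolone day 7 and 1747 to 2167 in vehicle day 7. The 4 tested adipocyte markers were above 0 with no call, and the 6 measured summed to 1375 to 8122, 1156 to 2132, 1193 to 1709 and 1076 to 1163 in the same order of groups. The 6 smooth muscle markers summed to 10499 to 18341, 10542 to 11533, 12023 to 12170 and 11729 to 12549. One of the 6, Des, is also in the muscle list. Its mean log2 level was 13.24, against 5.63 to 9.17 in the others, so it made up most of that sum. The 6 fibroblast markers summed to 20438 to 46394, 13824 to 25740, 19629 to 39872 and 20033 to 21333. The 7 of 8 endothelial markers measured summed to 1505 to 4675, 1470 to 2006, 1751 to 2113 and 1670 to 1845. The part of these cells in the falls of proteasome genes was not tested.

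Taken by treatment, neither time comparison called any of the 36. Under nandrolone, 33 of the 36 genes (91.7%) were below 0 at day 35, against 51.1% of all tested probe sets, with a median of -0.28. An unadjusted p under 0.05 was met by 12 lower genes (33.3%), against 8.06%, and by 0 higher, against 6.47%. Of all tested probe sets 0.403% were called lower and 0.274% higher. The 12 were Psma4 to Psma7, Psmb7, Psmd1, Psmd2, Psmd4, Psmd5, Psmd8, Psmd10 and Psmd11. The smallest p was that of Psmd8, at -0.73 ± 0.21 (limma, adjusted p = 0.135), followed by Psma7 at -0.55 ± 0.18 (adjusted p = 0.188). Without nandrolone day 35 replicate 3 the median was -0.13, 26 genes (72.2%) were below 0 against 49.9%, 8 had an unadjusted p under 0.05 against 6.44%, and none was called against 0.22%.

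Under vehicle, 22 of the 36 (61.1%) were below 0, against 50.5% of all tested probe sets, and the median was -0.06. None was called, against 2.17% of all tested probe sets called lower and 3.44% higher. Psmd8 at -0.67 ± 0.21 (limma, adjusted p = 0.0813), Psma4 at -0.48 ± 0.17, Psmd5 at -0.40 ± 0.15 and Psmd11 at -0.37 ± 0.17 had an unadjusted p under 0.05, which is 4 genes (11.1%) against 10.8%. Psmb8 alone was higher at that threshold, at 0.54 ± 0.24, which is 1 gene (2.78%) against 12.5% of all tested probe sets. Psmd8 passed in a fit of the vehicle groups alone, in a fit whose spread left out nandrolone day 35 replicate 3, and with the replicate number as a block. The alpha ring had a median of -0.39 under nandrolone and -0.18 under vehicle, with 7 of 7 below 0 in each. The ATPases had a median of -0.17 under nandrolone, with 6 of 6 below 0, and 0.16 under vehicle, with 1 of 6 below 0. The ATPases' median under nandrolone was 0.0013, with 3 of 6 below 0, and that of the alpha ring -0.31 when nandrolone day 35 replicate 3 was left out.

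The interaction asked whether the change with time differed between nandrolone and vehicle. None of the 36 was called, and no tested probe set was (0% in either direction). Psmd1 alone had an unadjusted p under 0.05, at -0.72 ± 0.25 (limma, adjusted p = 0.929), against 2.56% lower and 1.44% higher of all tested probe sets. Below 0 were 31 of the 36 (86.1%), against 52.9%, and the median was -0.18. Without nandrolone day 35 replicate 3 the median was -0.08, with 23 of 36 (63.9%) below 0, against 51% of all tested probe sets. The 2 time comparisons and the 2 drug comparisons share their groups, so these values are not independent of each other.

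**Figure D4:**
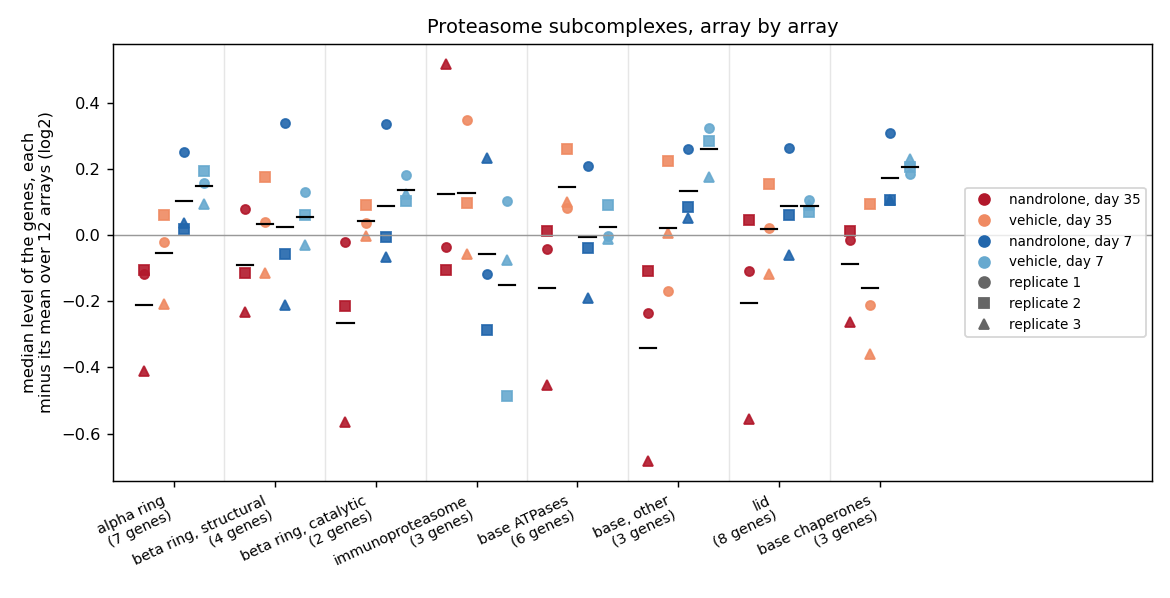
Median over the genes of each subcomplex of the log2 level minus the gene's mean over 12 arrays (y axis), for every array, with the group mean as a black line. Nandrolone day 35 replicate 3 (red triangle) is the lowest array in 6 of the 8 subcomplexes and the highest for the immunoproteasome genes; for the base chaperones vehicle day 35 replicate 3 is lower.

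The 36 genes were also summarised by array. The array score, the median over the genes of the level minus the gene's mean over the 12 arrays, was -0.08, -0.07 and -0.45 in nandrolone day 35 and 0.03, 0.15 and -0.08 in vehicle day 35, against 0.27, 0.01 and -0.05 in nandrolone day 7 and 0.12, 0.10 and 0.04 in vehicle day 7. Nandrolone day 7 replicate 1 was the highest array for 16 of the 36 genes and nandrolone day 35 replicate 3 the lowest for 26. The matching shares of all tested probe sets were not counted. The other 2 nandrolone day 35 arrays scored about as low as the lowest vehicle day 35 array. The alpha ring scored -0.12, -0.10 and -0.41 in nandrolone day 35 and -0.02, 0.06 and -0.21 in vehicle day 35, against 0.25, 0.02 and 0.04 in nandrolone day 7 and 0.16, 0.19 and 0.09 in vehicle day 7. The base ATPases scored -0.04, 0.01 and -0.45 in nandrolone day 35 and 0.08, 0.26 and 0.10 in vehicle day 35, against 0.21, -0.04 and -0.19 in nandrolone day 7 and 0.00, 0.09 and -0.01 in vehicle day 7. The base chaperones had every vehicle day 7 and nandrolone day 7 array above every day 35 array.

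Nandrolone against vehicle at day 35 asked what the drug did in muscle denervated for weeks. None of the 36 passed, as no tested probe set did (0% in either direction). Below 0 were 31 of the 36 (86.1%), against 54.8% of all tested probe sets, with a median of -0.20. On the deposited scale the median of the 36 was 0.03 and that of all tested probe sets 0.26, so the direction of the 36 turned with the scaling while their place below the rest did not. An unadjusted p under 0.05 was met by 4 lower genes (11.1%), against 5.01%, and by 0 higher, against 3.52%. Without nandrolone day 35 replicate 3 the median was -0.08, 26 genes (72.2%) were below 0 against 50.6%, and 1 gene, Psmd1, had an unadjusted p under 0.05 against 3.6%.

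The 4 genes were Psmd1, Psmb7 and the ATPases Psmc5 and Psmc1. Psmd1, named here after its values were seen, had log2 levels of 9.57, 9.73 and 9.21 in nandrolone day 35, against 9.98, 10.18 and 10.19 in vehicle day 35. The groups did not overlap, and the drug arrays remained lower when replicate 3 was set aside. Its change was -0.62 ± 0.18 (limma, adjusted p = 0.562), and -0.48 ± 0.17 without replicate 3 (adjusted p = 0.763). All nandrolone day 35 arrays lay below all vehicle day 35 arrays for 6 of the 36 genes (16.7%), against 7.31% of all tested probe sets. The 6 were Psma7, Psmb7, Psmc1, Psmc3, Psmc5 and Psmd1. Psmc5 had log2 levels of 11.16, 10.87 and 10.31 in nandrolone day 35, against 11.29, 11.49 and 11.21 in vehicle day 35; at day 7 they were 11.34, 11.05 and 10.86 under nandrolone and 10.99, 11.15 and 11.05 under vehicle. The day 35 groups did not overlap, and replicate 3 was the lowest. Its change was -0.55 ± 0.20 (adjusted p = 0.562), and -0.32 without replicate 3. Psmb7 stood at -0.36 ± 0.14 and Psmc1 at -0.45 ± 0.21, and without replicate 3 at -0.24 and -0.22. The lid had 8 of 8 genes below 0 with a median of -0.24, against 54.8% of all tested probe sets below 0. Without replicate 3 it had 5 of 8 below 0 with a median of -0.06, against 50.6%. The actin ratio given above did not overlap between these groups, and nandrolone day 35 replicate 3 had the highest sums of the Schwann cell, adipocyte, smooth muscle, endothelial and fibroblast lists and the lowest of the muscle list; their part in the values was not tested.

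**Figure D5:**
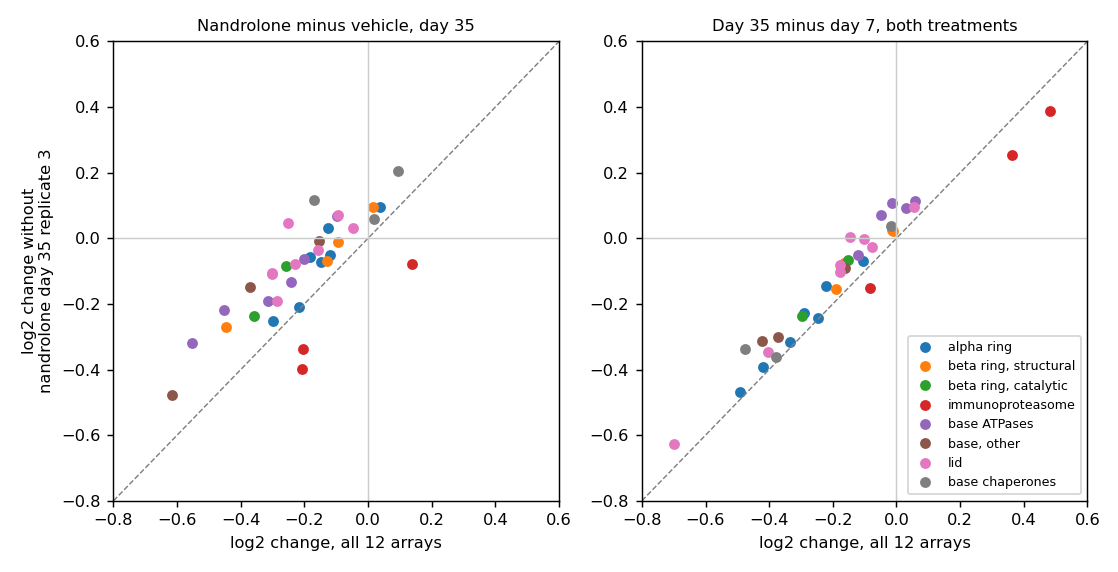
Log2 change of the 36 genes with all 12 arrays (x axis) and without nandrolone day 35 replicate 3 (y axis), for nandrolone minus vehicle at day 35 (left) and day 35 minus day 7 over both treatments (right); the dashed line is equality and colours are subcomplexes. Most points lie above the line, nearer to 0, and the median moves to -0.08 without the array against -0.20 with it on the left, and to -0.09 against -0.16 on the right. On the deposited scale the left median with all arrays is 0.03.

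At day 7 the drug and vehicle groups were closer. The median of the 36 was -0.01, 20 of them (55.6%) were below 0 against 50.6% of all tested probe sets, and changes ran from -0.24 for Psmc6 to 0.17 for Psmd3. None was called, as no tested probe set was (0% in either direction), and none had an unadjusted p under 0.05, which 0.848% of tested probe sets met as lower and 0.929% as higher. Standard errors at day 7 were 0.12 to 0.25, so changes of that size could not be told from the spread. Averaged over both days, none of the 36 was called, as no tested probe set was (0% in either direction). Below 0 were 32 (88.9%), against 54.4%, with a median of -0.10, which was 0.05 on the deposited scale and -0.05 without nandrolone day 35 replicate 3. Psmb7 alone had an unadjusted p under 0.05, at -0.23 ± 0.10 (limma, adjusted p = 0.863), against 2.68% lower and 2.09% higher of all tested probe sets. Without that array Psmb7 stood at -0.17 (unadjusted p = 0.0815 in limma) and no gene of the 36 had an unadjusted p under 0.05.

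Among 29 further tested genes of the pathway, 3 fell and 3 rose with time, averaged over treatments, against 6.07% lower and 6.49% higher of all tested probe sets. Psme4, an activator that caps the core particle without ATP, had log2 levels of 10.23, 10.60 and 10.28 in nandrolone day 35 and 10.57, 10.69 and 10.41 in vehicle day 35, against 11.35, 11.36 and 11.13 in nandrolone day 7 and 11.09, 11.44 and 11.36 in vehicle day 7. All day 35 arrays lay below all day 7 arrays. Psme4 fell by 0.83 ± 0.11 (limma, adjusted p = 0.00108), by 0.91 under nandrolone (adjusted p = 0.0324) and by 0.74 under vehicle (adjusted p = 0.0193). Leaving out 1 array in turn kept the call under nandrolone in 3 of 6 fits and under vehicle in 2 of 6. Psme1, a subunit of the interferon-inducible activator ring, had log2 levels of 11.25, 11.13 and 11.36 in nandrolone day 35 and 11.17, 11.30 and 11.29 in vehicle day 35, against 10.85, 10.61 and 10.78 in nandrolone day 7 and 11.12, 10.77 and 10.77 in vehicle day 7. Its lowest day 35 array was just above its highest day 7 array. Psme1 rose by 0.43 ± 0.10 (adjusted p = 0.0146), while its partner Psme2 stood at -0.17 ± 0.11 (adjusted p = 0.351).

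The deubiquitinase Uchl5, which binds the base, fell by 0.61 ± 0.14 (limma, adjusted p = 0.0155), and Psmg2, a chaperone of alpha ring assembly, fell by 0.36 ± 0.10 (adjusted p = 0.0384). The shuttle protein gene Ubqln2 rose by 0.53 ± 0.10 (adjusted p = 0.00671) and Uba1, the ubiquitin-activating enzyme, by 0.35 ± 0.09 (adjusted p = 0.0285). Under vehicle alone Ubqln2 (0.55, adjusted p = 0.0431) and Uba1 (0.54, adjusted p = 0.0338) also rose. Psme4 and Ubqln2 kept the averaged call in all 24 alternatives, Uchl5 in 22, Psme1 in 21, Psmg2 in 13 and Uba1 in 12. Of the 12 fits that each left out 1 array, Psmg2 kept the call in 3 and Uba1 in 4. Under vehicle alone, leaving out any 1 of the 6 arrays ended the calls of Ubqln2 and Uba1. None of the 7 regulators passed in any comparison; the transcription factors Nfe2l1, which drives proteasome genes, and Foxo3 stood at 0.22 ± 0.22 and 0.20 ± 0.12 with time. No gene of these lists passed for nandrolone or in the interaction. The smallest p-values there were those of the signal transducer Stat3 (-1.42 ± 0.62) and the assembly chaperone Psmg4 (-0.27 ± 0.18) at day 7, and of the atrophy factor Foxo1 (-0.72 ± 0.25) and the proteasome-bound scaffold Ecpas (-0.36 ± 0.16) at day 35. Averaged over days they were those of Foxo1 (-0.45 ± 0.18) and Psmg4 (-0.30 ± 0.13), and in the interaction those of Uba1 (-0.38 ± 0.19) and the chaperone Psmg1 (-0.41 ± 0.24), with adjusted p of 0.562 or above (limma) in each case. Stat3 had log2 levels of 9.78, 9.85 and 7.11 in nandrolone day 7, against 10.13, 10.42 and 10.45 in vehicle day 7. Its change there thus rested largely on nandrolone replicate 3, though the other nandrolone arrays also lay below vehicle.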

How the data were processed

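Total RNA was measured on 12 one-colour Affymetrix rat arrays, 3 in each of 4 groups. The authors deposited linear intensity values made with MAS5, per the submitters' processing notes, whose version is not given in the sources used here. The scanner images were not used here, so signal over background could not be set per probe, and precision rests on how many arrays there are. Of 31099 probe sets 57 controls were left out. Of the other 31042, the platform annotation gives 1 gene to 20826, several to 436 and none to 9780. All 36 symbols are current in RefSeq. No pair of arrays was identical.

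From the deposited intensity, log2(intensity + 16) was computed and quantile normalised, probe sets in the lowest 40% by mean level were dropped, and 18626 were tested in limma 3.58.1 (R 4.3.3) with 4 group means, 8 residual degrees of freedom, eBayes with trend and Benjamini-Hochberg adjustment. A call is an adjusted p under 0.05. An exact permutation test of 3 arrays against 3 cannot go below 0.1. Changes at low signal are understated by the added 16. The procedure was tested on simulated data.

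The 36 genes, the pathway lists and the marker lists were chosen with earlier results of these data known. Values in every array are given for called genes (at most 4 a subcomplex and comparison), catalytic and immunoproteasome genes and, in each subcomplex, the gene with the smallest p in any comparison; of the other pathway genes, those called are named, and otherwise the 2 with the smallest p per comparison. Alternatives were other scalings, pseudocounts of 1 and 64, no filter, a 60% filter, no trend, array weights, the mean of a gene's probe sets, the replicate number as a block, fits of single pairs of groups and leaving out each array. Same-numbered arrays were checked for pairing by whether every correlation of deviations was above 0.1. That held for the nandrolone groups (0.162, 0.265 and 0.416) and not for the day 7 groups (0.148, 0.082 and 0.105) or any other pair of groups. The main fit held no pairing, so its p-values, also those for time under nandrolone, leave it out. Only the alternative with the replicate number as a block took it in. A deposited list of fold changes has 12 per-sample columns that could not be tied to samples and was not used here.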

Additional observations from a re-analysis of the deposited data

How the results depend on the processing

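The deposited scale without nandrolone day 35 replicate 3 and the block without it were chosen after seeing the data. None of the 36 genes was called for nandrolone at day 7 or day 35, its average, the interaction or time under nandrolone in any alternative (limma). The median change for nandrolone at day 35 was 0.0301 on the deposited scale and -0.0475 on that scale without replicate 3, and median centring moved time under nandrolone to -0.46 and the interaction to -0.33. Under vehicle, array weights called 7 of the 36 (6 lower and Psmb8 higher), and the replicate block, the fit of the groups compared, the fit of the spread without nandrolone day 35 replicate 3 and the block without it called 1 each, Psmd8. Averaged over treatments, the count of 6 was 1 on the deposited scale with or without that array, 3 with no filter, 3 with no trend, 11 with array weights (10 lower and Psmb8 higher) and 1 to 7 leaving out single arrays, with Psmb8 higher among the 4 without vehicle day 35 replicate 3. The block gave 6 there and changed no other call of the 36. The change of Psmb10 turned to 0.0893 on the deposited scale. The cause of these shifts was not tested. On the deposited scale all tested probe sets had a median of 0.13 for nandrolone at day 7, 0.26 at day 35, 0.19 averaged over days, 0.20 for time under nandrolone and 0.12 for time averaged.

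Over all tested probe sets, calls for time averaged numbered 2338 (1208 higher, 1130 lower), against 953 (670 and 283) on the deposited scale, 1857 with no filter, 2203 with no trend, 4570 with array weights and 1359 to 2676 leaving out single arrays. Under vehicle they numbered 1045 (641 and 404), against 192 (148 and 44) on the deposited scale, 5274 with weights, 2550 in the fit of the groups compared, 2034 with the spread without nandrolone day 35 replicate 3 and 178 to 963 leaving out single arrays. Under nandrolone they numbered 126 (51 and 75), against 15 (15 and 0) on the deposited scale, 106 (32 and 74) with median centring, 73 with no filter, 59 with no trend, 293 with weights, 0 in the fit of the groups compared, 128 with the block, 68 with the block without nandrolone day 35 replicate 3 and 0 to 263 leaving out single arrays. For nandrolone at day 35, 49 were called with weights, against 0 with all arrays weighted alike. With 3 arrays a group, small changes could not be told from the spread.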
